A study of Mus musculus with 12 samples.

Results

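The forebrain transcripts of 6 genes were examined: the neurotrophins Bdnf and Ntf3, the Trk receptors Ntrk2 and Ntrk3, the p75 receptor gene Ngfr and the sorting receptor gene Sort1. They were chosen by symbol, each matched 1 Ensembl identifier, and all 6 were found among the 19268 genes of the table and passed the minimum mean of 10 normalized counts. RNA came from the forebrain, without the olfactory bulb, of male C57BL/6J mice that were juvenile (P25) or adult (P60). At each age, wild-type (WT) mice were compared with knock-out (KO) mice homozygous for a Shank3 allele that lacks internal exons. The groups P25-WT, P25-KO, P60-WT and P60-KO had 3 libraries each, and per the study each library was a separate mouse. The comparisons asked how Shank3 loss alters transcripts and whether this differs with age.

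Neurotrophins are secreted proteins that support the survival, growth and synaptic plasticity of neurons. They are made as precursors and cleaved to mature ligands. BDNF acts mainly through the tyrosine kinase TrkB (Ntrk2) and neurotrophin-3 (Ntf3) mainly through TrkC (Ntrk3). The p75 receptor (Ngfr) binds all mature neurotrophins and, together with sortilin (Sort1), their precursors. In the forebrain, Bdnf is transcribed chiefly by excitatory neurons in response to activity, and Ngfr is best known from cholinergic neurons of the basal forebrain. Ntrk2 and Ntrk3 also give receptors without a kinase domain, and the truncated form of TrkB is abundant in astrocytes. The values here are per gene and cannot separate such forms.

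Bdnf (ENSMUSG00000048482) lies at chr2:109674700-109727007 on the plus strand of GRCm38, with 11 annotated transcripts. Ntf3 (ENSMUSG00000049107) lies at chr6:126101412-126166910 on the minus strand, with 3 transcripts. Ntrk2 (ENSMUSG00000055254) lies at chr13:58806569-59133970 on the plus strand, with 10 transcripts. Ntrk3 (ENSMUSG00000059146) lies at chr7:78175959-78738012 on the minus strand, with 20 transcripts. Ngfr (ENSMUSG00000000120) lies at chr11:95568818-95587735 on the minus strand, with 1 transcript. Sort1 (ENSMUSG00000068747) lies at chr3:108284082-108361511 on the plus strand, with 3 transcripts. Antisense genes overlap exons of Bdnf (Gm45346) and of Sort1 (Gm12523). The use of strand in the counting is not given in the sources used here, and without it reads from these antisense genes cannot be told apart from those of Bdnf and Sort1. Of the 31-base words in the Bdnf transcripts, 13.5% also lie in transcripts on the other strand, against 4.07% for Sort1. Words shared with other genes on the same strand made up at most 1.26%, the share for Ngfr.

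A table of RefSeq start sites (GRCm38.p6) gave windows from 250 bases before to 50 after a start site for 4 of the 6 genes, with 7 windows for Bdnf, 2 for Ntf3 and 1 each for Ntrk2 and Ngfr. Windows of Ntrk3 and Sort1 were not analysed here. Of the 7 Bdnf windows, 1 held TCACGTCA, a variant of the cyclic AMP response element (CRE), the type of site that CREB binds in the activity-regulated Bdnf promoter. It is printed with that element in capitals, at position -38 from the start site, and the half-site CGTCA inside it begins at -35. TCACGTCA was found on either strand in 0.441% of 32851 windows of this length, and CGTCA in 20.8%. The windows of Ntrk2 and Ngfr, the receptor genes that differed with age in opposite directions, are printed with GC boxes (GGGCGG or its reverse complement) in capitals. A GC box was found in 35.7% of all windows. None of the 11 windows held the full CRE TGACGTCA (1.79% of all windows) or TATAAA (13.6%), and CACGTG (7.15%) was in 1 of the Ntf3 windows. The start site from which each transcript came is not known from values per gene.
Bdnf, chr2:109692186-109692485, plus strand: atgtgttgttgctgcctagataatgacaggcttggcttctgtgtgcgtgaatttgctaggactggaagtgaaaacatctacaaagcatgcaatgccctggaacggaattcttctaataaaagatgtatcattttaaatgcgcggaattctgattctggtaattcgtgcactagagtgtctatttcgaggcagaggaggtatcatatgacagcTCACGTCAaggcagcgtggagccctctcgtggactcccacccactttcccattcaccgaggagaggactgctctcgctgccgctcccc
Ntrk2, chr13:58806319-58806618, plus strand: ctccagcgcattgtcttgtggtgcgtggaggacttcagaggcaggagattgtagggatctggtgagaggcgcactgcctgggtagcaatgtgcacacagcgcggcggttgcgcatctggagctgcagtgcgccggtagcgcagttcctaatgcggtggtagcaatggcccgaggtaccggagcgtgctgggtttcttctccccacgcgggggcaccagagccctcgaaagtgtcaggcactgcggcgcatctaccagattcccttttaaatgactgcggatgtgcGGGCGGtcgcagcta
Ngfr, chr11:95587649-95587948, minus strand: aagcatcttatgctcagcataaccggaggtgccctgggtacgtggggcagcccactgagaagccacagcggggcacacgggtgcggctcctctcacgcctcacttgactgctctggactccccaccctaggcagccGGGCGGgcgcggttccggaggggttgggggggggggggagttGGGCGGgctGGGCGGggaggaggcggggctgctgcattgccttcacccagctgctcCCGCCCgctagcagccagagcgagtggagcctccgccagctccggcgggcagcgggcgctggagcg
The Bdnf window had a GC content of 48.7%, the Ntrk2 window 61.3% and the Ngfr window 71.7%. The Ngfr window held 4 GC boxes and the Ntrk2 window held 1.

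The deposited values are normalized counts, and their total per library differed little, from 30568259 to 32348554. Shank3, the targeted gene, had 4535 to 5729 normalized counts in the KO libraries and 8936 to 11683 in the WT libraries, a mean of 48.0% of WT at P25 and 50.2% at P60. Of 12 lists of cell type markers, none had a gene listed at 0 in any library, and no marker passed the test between genotypes over both ages (limma). Between ages, oligodendrocyte markers fell in 8 of 8 genes, beside 19.3% of all genes lower at P60. Their summed level was 440282 to 517899 normalized counts in P25-WT and 400102 to 472421 in P25-KO, against 194783 to 214204 in P60-WT and 199115 to 222470 in P60-KO. In whole tissue, fewer cells of a type and less RNA per cell cannot be told apart.

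Levels of the 6 genes were compared per length of exon sequence, as normalized counts per kilobase over all 12 libraries. Sort1 was highest at 2074 ± 174 (SD, n = 12), followed by Ntrk2 at 1087 ± 80.2 and Ntrk3 at 212 ± 26.8. The ligands were lower, with Bdnf at 113 ± 12.1 and Ntf3 at 22.1 ± 3.98, and Ngfr stood between them at 43.8 ± 7.66. On this scale no neighbours in the order overlapped in any library. With the length of the longest annotated transcript, Ntrk2 came first at 2398 ± 177 (SD, n = 12) and Sort1 second at 2296 ± 192, and their ranges overlapped. The other ranks did not change. All the ligands and receptors below are given as normalized counts per gene, which may be compared between libraries but not between genes.

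**Figure D1:**
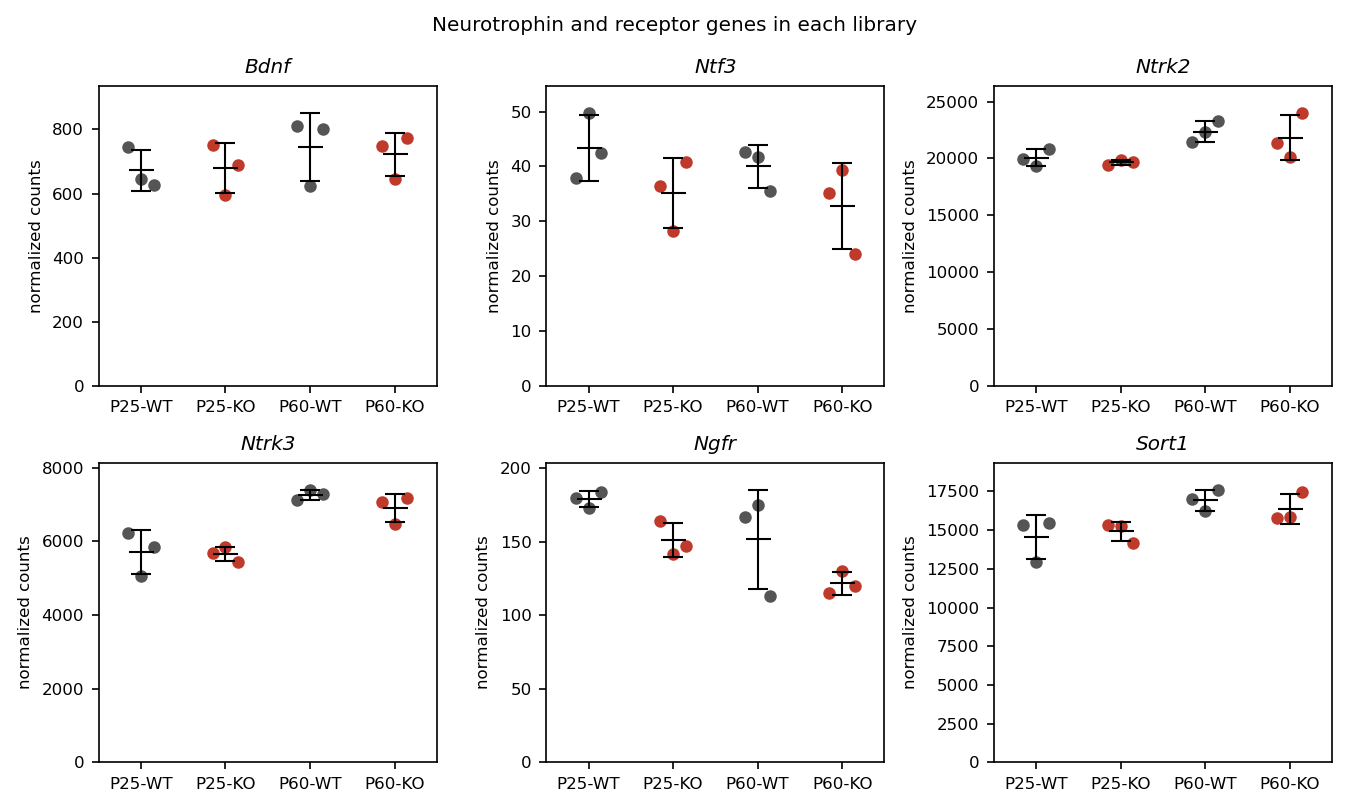
Normalized counts of the 6 genes in each library by group (dots; grey WT, red KO), with the group mean and SD (bars, n = 3). Ntrk3 in every P60 library, from 6480 to 7395, lay above every P25 library, whereas the Bdnf groups overlapped.

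Bdnf, the ligand of TrkB, passed no test between genotypes or ages. In P25-WT it had 744, 647 and 626 normalized counts, and in P25-KO 751, 596 and 688. In P60-WT it had 812, 624 and 800, and in P60-KO 747, 646 and 774. The 4 groups overlapped, and the range within every group was wider than the difference between any 2 group means. The group means were 672 ± 62.6 in P25-WT, 678 ± 77.7 in P25-KO, 745 ± 105 in P60-WT and 722 ± 67.3 in P60-KO (SD, n = 3 each). Over both ages the fold of KO to WT was 0.990 (95% interval 0.875 to 1.12). Over both genotypes the fold of P60 to P25 was 1.08 (0.959 to 1.23), with an adjusted p of 0.288 (limma).

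Ntf3, the ligand of TrkC, had low values that were on average lower in KO mice at both ages. Its values were 37.9, 49.7 and 42.5 in P25-WT and 36.4, 28.3 and 40.8 in P25-KO. At P60 they were 42.7, 41.8 and 35.5 in P60-WT and 35.1, 39.3 and 24.0 in P60-KO. The genotypes overlapped at each age. Over both ages the log2 fold change of KO to WT was -0.30 ± 0.16 (SE), with an unadjusted p of 0.077 and an adjusted p of 1 (limma). The two-sided exact permutation test within ages gave p = 0.045, not adjusted for the 6 genes examined. Between ages the log2 fold change was -0.11 ± 0.16 (SE, adjusted p = 0.617, limma). The range without 1 library at a time is wide for so low a gene: the log2 fold change of KO to WT went from -0.41 to -0.16 at P25 and from -0.45 to -0.10 at P60, the values nearest 0 being those without P25-KO replicate 2 and without P60-KO replicate 3.

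Ntrk2, which encodes TrkB, was higher at P60 than at P25. It had 19981, 19334 and 20817 normalized counts in P25-WT and 19441, 19839 and 19681 in P25-KO. It had 21423, 22326 and 23298 in P60-WT and 21394, 20102 and 23966 in P60-KO. In each genotype the lowest P60 library stood above the highest P25 library. Over both genotypes the difference was 11.1% (log2 fold change 0.15 ± 0.04 SE, adjusted p = 0.0121, limma). The exact permutation p within genotypes was 0.005, the smallest that 400 arrangements allow. Within WT alone (0.16 ± 0.06, adjusted p = 0.141, limma) and within KO alone (0.15 ± 0.06, adjusted p = 0.123, limma) it did not pass the threshold. In KO the log2 fold change was 0.08 without P60-KO replicate 3 (adjusted p = 0.354, limma) and 0.20 without P60-KO replicate 2, where it passed (adjusted p = 0.0469, limma).

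Ntrk3, which encodes TrkC, was higher at P60 than at P25 and passed the test in each genotype. It had 6219, 5055 and 5839 normalized counts in P25-WT and 5686, 5847 and 5453 in P25-KO. It had 7119, 7395 and 7277 in P60-WT and 7066, 6480 and 7167 in P60-KO. All 6 P60 libraries lay above all 6 P25 libraries. Over both genotypes it was 24.8% higher at P60 (log2 fold change 0.32 ± 0.05 SE, adjusted p = 0.000235, limma; exact permutation p = 0.005). It rose by 0.35 ± 0.08 on the log2 scale in WT (adjusted p = 0.0375, limma) and by 0.29 ± 0.06 in KO (adjusted p = 0.00744, limma). The WT call was lost without P25-WT replicate 1 (adjusted p = 0.0663) and without P60-WT replicates 1, 2 or 3 (0.115, 0.109 and 0.152), although the log2 fold change stayed between 0.34 and 0.42 in those 4 fits. Without an intensity trend in the variance model, the adjusted p was 0.113 in WT and 0.0558 in KO.

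Ngfr, which encodes p75, was lower at P60 over both genotypes and on average lower in KO mice. It had 180, 173 and 184 normalized counts in P25-WT and 164, 142 and 147 in P25-KO. It had 167, 175 and 113 in P60-WT and 115, 130 and 120 in P60-KO. At P25 every KO library lay below every WT library, whereas at P60 the third WT library, at 113, was lower than all KO libraries. Between ages the level fell by 18.0% over both genotypes (log2 fold change -0.29 ± 0.11 SE, adjusted p = 0.0464, limma; exact permutation p = 0.01). Neither genotype passed alone, at -0.26 ± 0.18 in WT (adjusted p = 0.368, limma) and -0.31 ± 0.13 in KO (adjusted p = 0.118, limma), and the WT value was -0.06 without P60-WT replicate 3. The call over both genotypes stood close to the threshold. It was lost without a minimum mean (adjusted p = 0.0502), with libraries scaled to equal totals (0.0899) or equal upper quartiles (0.0597), and without any 1 library (0.0528 to 0.104) except P25-WT replicate 2 and P60-WT replicates 1 and 2.

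For genotype, Ngfr had a log2 fold change of KO to WT of -0.27 ± 0.11 over both ages (SE), -0.24 ± 0.12 at P25 and -0.29 ± 0.18 at P60. Over both ages the unadjusted p was 0.0253 and the adjusted p was 1 (limma), and the exact permutation p within ages was 0.04, not adjusted for the 6 genes. Leaving out P60-WT replicate 3 moved the log2 fold change over both ages to -0.35 and that at P60 to -0.49, and leaving out P60-WT replicate 2 moved them to -0.21 and -0.17. Markers of cholinergic neurons of the basal forebrain, where Ngfr is expressed, summed to 494 to 719 normalized counts in P25-WT, 557 to 647 in P25-KO, 533 to 597 in P60-WT and 513 to 609 in P60-KO, and 1 of 5 was lower at P60. Markers of pericytes and meningeal fibroblasts summed to 6613 to 7532 in P25-WT, 6642 to 6982 in P25-KO, 4762 to 5056 in P60-WT and 4518 to 4796 in P60-KO, and 4 of 8 were lower at P60. Over all genes tested, 19.3% passed as lower at P60, and the 1 of 5 cholinergic markers stood near that share. The part of these cells in the Ngfr differences was not tested.

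Sort1, which encodes sortilin, was higher at P60 than at P25. It had 15305, 12952 and 15471 normalized counts in P25-WT and 15327, 15239 and 14191 in P25-KO. It had 16992, 16211 and 17575 in P60-WT and 15761, 15859 and 17482 in P60-KO. The ages did not overlap, although the lowest P60 library, at 15761, was close to the highest P25 library. Over both genotypes the level was 13.0% higher at P60 (log2 fold change 0.18 ± 0.05 SE, adjusted p = 0.0128, limma; exact permutation p = 0.005). In WT alone the log2 fold change was 0.22 ± 0.08 (adjusted p = 0.118, limma), and without P25-WT replicate 2 it was 0.14. It passed when all 12 libraries shared the estimate of spread (0.0472). In KO alone it was 0.13 ± 0.06 (adjusted p = 0.122, limma), and 0.08 without P60-KO replicate 3 (0.34).

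Over both genotypes, 4 of the 6 genes passed the age test, 3 higher and 1 lower. The background was high: 37.6% of the 17594 genes tested passed, 18.3% higher and 19.3% lower at P60. With equal totals, all genes split into 4038 higher and 2730 lower calls, against 3219 and 3397 as deposited, and the 6 genes into 3 higher and 0 lower. In WT alone 1 of 6 genes passed, beside 8.65% of all genes, and in KO alone 1 of 6, beside 20.7%. These background shares were unstable. The 1521 calls among all genes in WT became 122 (without P60-WT replicate 3) to 2403 (without P25-WT replicate 2), and each of the 6 libraries moved the count by over 1.5 times. The 3641 calls in KO became 2093 to 3230, with P25-KO replicates 1 and 3 and P60-KO replicates 1 and 3 moving it by over 1.5 times. With all 12 libraries in the fit, the order of the genotypes turned, with 3442 calls in WT and 2500 in KO. Groups did not overlap for 3 of 6 genes in WT (Ntrk2, Ntrk3 and Sort1), beside 36% of all genes, and for 4 of 6 in KO (these and Ngfr), beside 39.4%. The median log2 fold change of the 6 genes was 0.13, against 0.00371 over all genes.

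None of the 6 genes passed the test between KO and WT mice at P25, where 0.00571% of 17515 genes passed, or at P60, where 0.00568% of 17610 passed. Over both ages the background was 0.00568% of 17594 genes, and none of the 6 passed (limma). In each of these 3 comparisons Shank3 was the only gene to pass. At an unadjusted p under 0.05 the count was 0 of 6 at P25, 0 at P60 and 1, Ngfr, over both ages, beside 1.36%, 2.5% and 2.05% of all genes. Groups did not overlap for 1 of the 6 genes at P25 (Ngfr), beside 4.76% of all genes, and for 0 at P60, beside 7.79%. The intervals bound the differences tightly for the receptors with high values. The fold of KO to WT over both ages was 0.978 for Ntrk2 (95% interval 0.918 to 1.04), 0.973 for Ntrk3 (0.904 to 1.05) and 0.996 for Sort1 (0.925 to 1.07). They were wider for Ngfr, at 0.832 (0.710 to 0.974), and for Ntf3, at 0.811 (0.640 to 1.03).

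**Figure D2:**
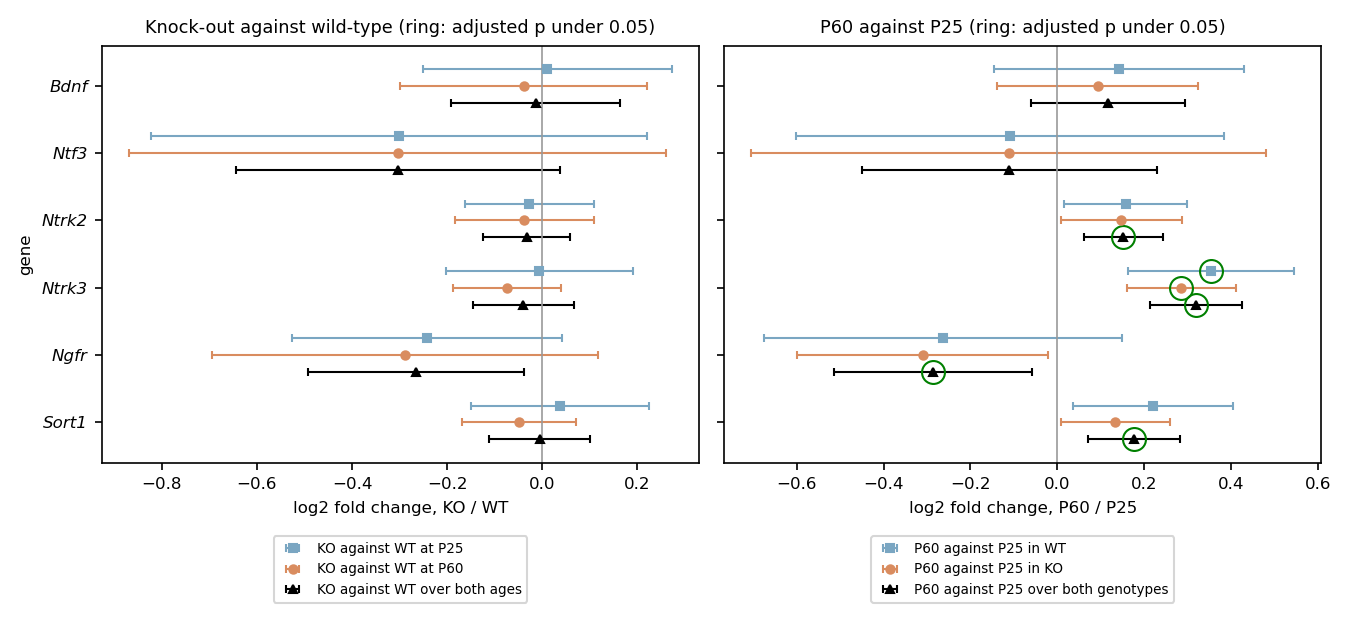
Log2 fold changes of the 6 genes with 95% intervals (bars) for KO against WT (left) and P60 against P25 (right), in 1 group and over both (squares, circles and triangles). Rings mark adjusted p under 0.05 (limma): no genotype value is ringed, and Ntrk3 is ringed in all 3 age comparisons.

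The genotype difference was then compared between ages. The interaction, the log2 fold change of KO to WT at P60 minus that at P25, passed for 0 of 6 genes and for 0% of all 17594 genes (limma), and none of the 6 had an unadjusted p under 0.05, beside 1.64% of all genes. It was -0.09 for Sort1 (95% interval -0.31 to 0.13), -0.07 for Ntrk3 (-0.29 to 0.15) and -0.0097 for Ntrk2 (-0.20 to 0.18). For the other genes the intervals were wider: -0.05 for Bdnf (-0.42 to 0.32), -0.05 for Ngfr (-0.52 to 0.43) and -0.0028 for Ntf3 (-0.72 to 0.71).

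A factor common to all genes of a library cancels in a ratio, but scaling that differs by gene does not. The balance of TrkB to TrkC transcripts shifted with age: Ntrk2 to Ntrk3 was 3.21, 3.82 and 3.57 in P25-WT and 3.42, 3.39 and 3.61 in P25-KO, against 3.01, 3.02 and 3.20 in P60-WT and 3.03, 3.10 and 3.34 in P60-KO. The ratio at P60 was 0.890 times that at P25 (two-sided exact permutation p = 0.005, 0.01 adjusted over 6 ratios). Ngfr to Ntrk2 was 0.00885 to 0.00900 in P25-WT and 0.00717 to 0.00845 in P25-KO, against 0.00483 to 0.00786 in P60-WT and 0.00501 to 0.00648 in P60-KO. It fell to 0.737 times the P25 level (exact permutation p = 0.005, adjusted 0.01). Sort1 to Ngfr, the pair that forms the receptor for precursors, rose 1.38-fold (exact permutation p = 0.005, adjusted 0.01). Ntf3 to its receptor Ntrk3 was 0.741 times the P25 level and did not pass (exact permutation p = 0.04, adjusted 0.06), although it did without P25-KO replicate 2, P25-WT replicate 1 or P60-KO replicate 2 (adjusted 0.03, 0.0375 and 0.045). For Bdnf to its receptor Ntrk2 the ratio at P60 was 0.976 times that at P25 (exact permutation p = 0.71, adjusted 0.71), and for Bdnf to Ntf3 it was 1.17 (exact permutation p = 0.255, adjusted 0.306). Between genotypes over both ages none of the 6 ratios passed, with the smallest exact permutation p at 0.075 for Sort1 to Ngfr, 1.20-fold higher in KO (adjusted 0.28). Without P60-WT replicate 3, the library with the lowest Ngfr, 2 of them passed: Sort1 to Ngfr was 1.30-fold higher in KO (exact permutation p = 0.005, adjusted 0.03) and Ngfr to Ntrk2 was 0.785 times the WT level (exact permutation p = 0.01, adjusted 0.03).

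**Figure D3:**
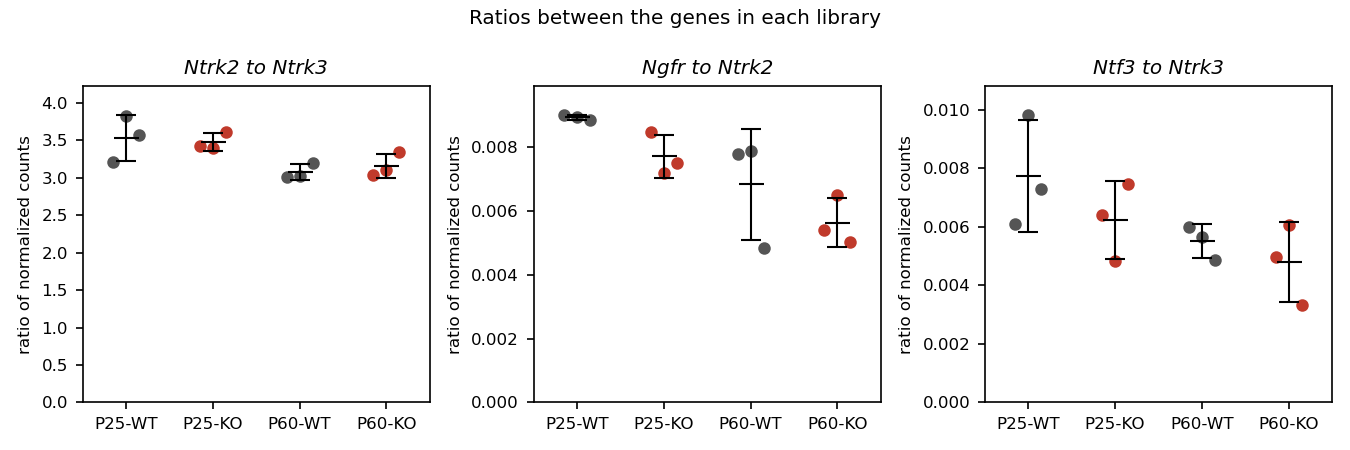
Ratios of normalized counts in each library (dots; grey WT, red KO) with the group mean and SD (bars, n = 3). Ntrk2 to Ntrk3 and Ngfr to Ntrk2 were lower at P60, at 0.890 and 0.737 times the P25 level.

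Astrocytes carry much of the truncated TrkB, a form that values per gene do not separate. Of the astrocyte markers, 6 of 8 were lower at P60, beside 19.3% of all genes. Their summed level was 138439 to 145233 in P25-WT, 131532 to 148173 in P25-KO, 114491 to 122665 in P60-WT and 110985 to 122952 in P60-KO. Markers of glutamatergic neurons, which transcribe Bdnf, were lower in 4 of 8 genes and higher in 1, beside 19.3% and 18.3% of all genes. Their sums were 120477 to 127666 in P25-KO, 123369 to 126541 in P25-WT, 108808 to 112843 in P60-KO and 110934 to 114618 in P60-WT. The part of cell composition in the age differences was not tested.

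For each gene, the 3 genes with the most similar pattern over the 12 libraries were found by Pearson's r of log2(value + 1). The libraries share preparation, scaling and the age difference, so r is a description. Bdnf was most like Kctd1 (r = 0.949), Pdia6 (0.898) and Hspa5 (0.895). Pdia6 and Hspa5 encode chaperones of the endoplasmic reticulum. With group means removed these values were 0.951, 0.893 and 0.884, so the likeness was also seen within groups. At P60 the libraries of replicate 2 were the lowest for Bdnf in both genotypes (624 in WT and 646 in KO), and so they were for Hspa5, at 5493 and 5656 against 10654 to 12172 in the other 4 P60 libraries. In P25-KO, replicate 2 was also the lowest for both genes (596 for Bdnf and 5956 for Hspa5). In P25-WT, Bdnf was lowest in replicate 3 (626) and Hspa5 in replicate 2 (6039).

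**Figure D4:**
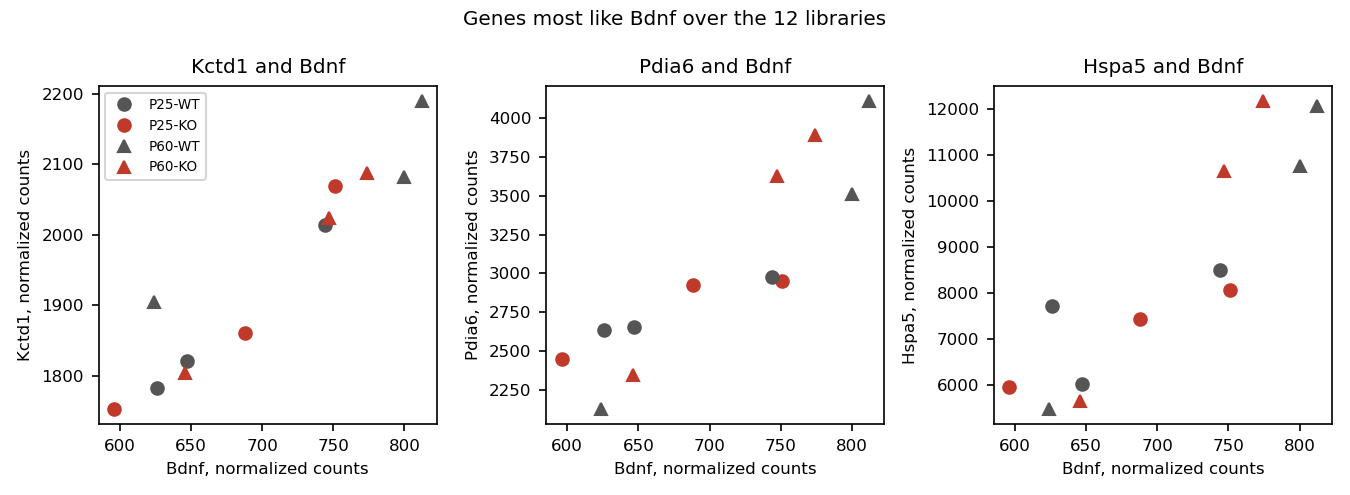
Normalized counts of Kctd1, Pdia6 and Hspa5 (vertical axes) against those of Bdnf (horizontal axes) in the 12 libraries (circles P25, triangles P60; grey WT, red KO; the axes do not start at 0). The lowest P60 libraries for Bdnf, at 624 and 646, were also the lowest for Pdia6 and Hspa5.

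Ntrk3 was most like Plcb4 (r = 0.980), Eml5 (0.978) and Srrm1 (0.976). Sort1 was most like Helz (0.989), Tcaf1 (0.985) and Aqr (0.985), and Ntrk2 was most like Lrrc7 (0.974), Pigg (0.962) and Cdh19 (0.958). Among the 6 genes themselves, r was 0.895 between Ntrk3 and Sort1, 0.845 between Ntrk2 and Ntrk3 and 0.827 between Ntrk2 and Sort1. With group means removed, these values dropped to 0.776, 0.537 and 0.625. Ntf3 was most like Nudt6 (0.949), Kcnj14 (0.883) and Haus7 (0.880), and Ngfr was most like Chaf1b (0.910, at a mean of only 11.5 normalized counts), Tesk2 (0.903) and Itpripl1 (0.901). The r of Itpripl1 with Ngfr dropped to 0.796 with group means removed.

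The other genes of the pathway were taken from a list of 72 by role, of which 71 were tested. Ntf5, which encodes neurotrophin-4, the other ligand of TrkB, had 2.54 to 14.0 normalized counts and was not tested. Between ages 27 of 71 passed, 13 higher and 14 lower, or 38.0%, close to the 37.6% of all genes, and with equal totals the split was 16 and 13. The median log2 fold change was 0.02. In WT alone 6 passed, or 8.45% beside 8.65% of all genes, 1 higher and 5 lower (3 and 3 with equal totals). In KO alone 19 passed, or 26.8% beside 20.7% of all genes, 8 higher and 11 lower (11 and 10 with equal totals). Both shares of all genes rest on the unstable counts of 1521 and 3641 calls.

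Among genes for processing and secretion of precursors, 1 of 11 rose and 3 fell with age, or 36.4% beside 37.6% of all genes. Plat, the tissue plasminogen activator that leads to cleavage of pro-BDNF, had 1372 to 1483 normalized counts in P25-WT and 1276 to 1586 in P25-KO, against 921 to 996 in P60-WT and 853 to 950 in P60-KO. It fell by 0.60 ± 0.06 on the log2 scale (SE), with an adjusted p of 4.5e-06 (limma). Pcsk5, a proprotein convertase, fell by 0.35 ± 0.08, and Cpe, which sorts pro-BDNF to the regulated secretory pathway, fell by 0.18 ± 0.03. Serpini1, the neuroserpin that inhibits tissue plasminogen activator, rose by 0.19 ± 0.06 (adjusted p = 0.0202, limma), a call lost without P25-WT replicate 1 (0.0518). Of the other receptors and relatives of sortilin, 0 of 6 passed.

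Among p75 co-receptors and adaptors, 9 of 13 passed, 4 higher and 5 lower, or 69.2% beside 37.6% of all genes. Arhgdia, whose product p75 binds, fell by 0.54 ± 0.04 on the log2 scale (adjusted p = 2.7e-07, limma), from 9683 to 10510 normalized counts at P25 to 6407 to 7306 at P60. Bex3, a p75-binding adaptor, fell by 0.46 ± 0.08, and Lingo1, a p75 co-receptor in Nogo signalling, fell by 0.26 ± 0.04. The signalling adaptors Ripk2, Traf6 and Irak1 rose by 0.42 ± 0.10, 0.29 ± 0.06 and 0.24 ± 0.06.

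Among Trk adaptors and effectors, 9 of 21 passed, 5 higher and 4 lower, or 42.9%, near the 37.6% of all genes. Kidins220, a membrane scaffold that Trk receptors phosphorylate, rose by 0.25 ± 0.04 (adjusted p = 0.000541, limma). Grb2 and Frs2, the adaptors that link Trk receptors to Ras, rose by 0.26 ± 0.06 and 0.21 ± 0.04. Gab1, Frs3 and Rapgef1 fell by 0.25 ± 0.06, 0.22 ± 0.06 and 0.16 ± 0.04.

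Among regulators of Bdnf transcription, 4 of 8 passed, 3 higher and 1 lower, beside 37.6% of all genes. Creb1, which encodes CREB, rose by 0.27 ± 0.07 (adjusted p = 0.00829, limma), and Npas4, an activity-induced activator of Bdnf, rose by 0.62 ± 0.16, with 378 to 777 normalized counts at P25 and 694 to 1045 at P60. Usf1 fell by 0.30 ± 0.06. Of 11 genes that respond to TrkB signalling, 1, Nptx2, passed (9.09% beside the same background) and fell by 0.29 ± 0.09 (adjusted p = 0.0256, limma). That call was lost without an intensity trend (0.0527) and without P25-KO replicates 1 or 3, P25-WT replicate 1, P60-KO replicates 2 or 3, or P60-WT replicate 2 (0.0555 to 0.0602).

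**Figure D5:**
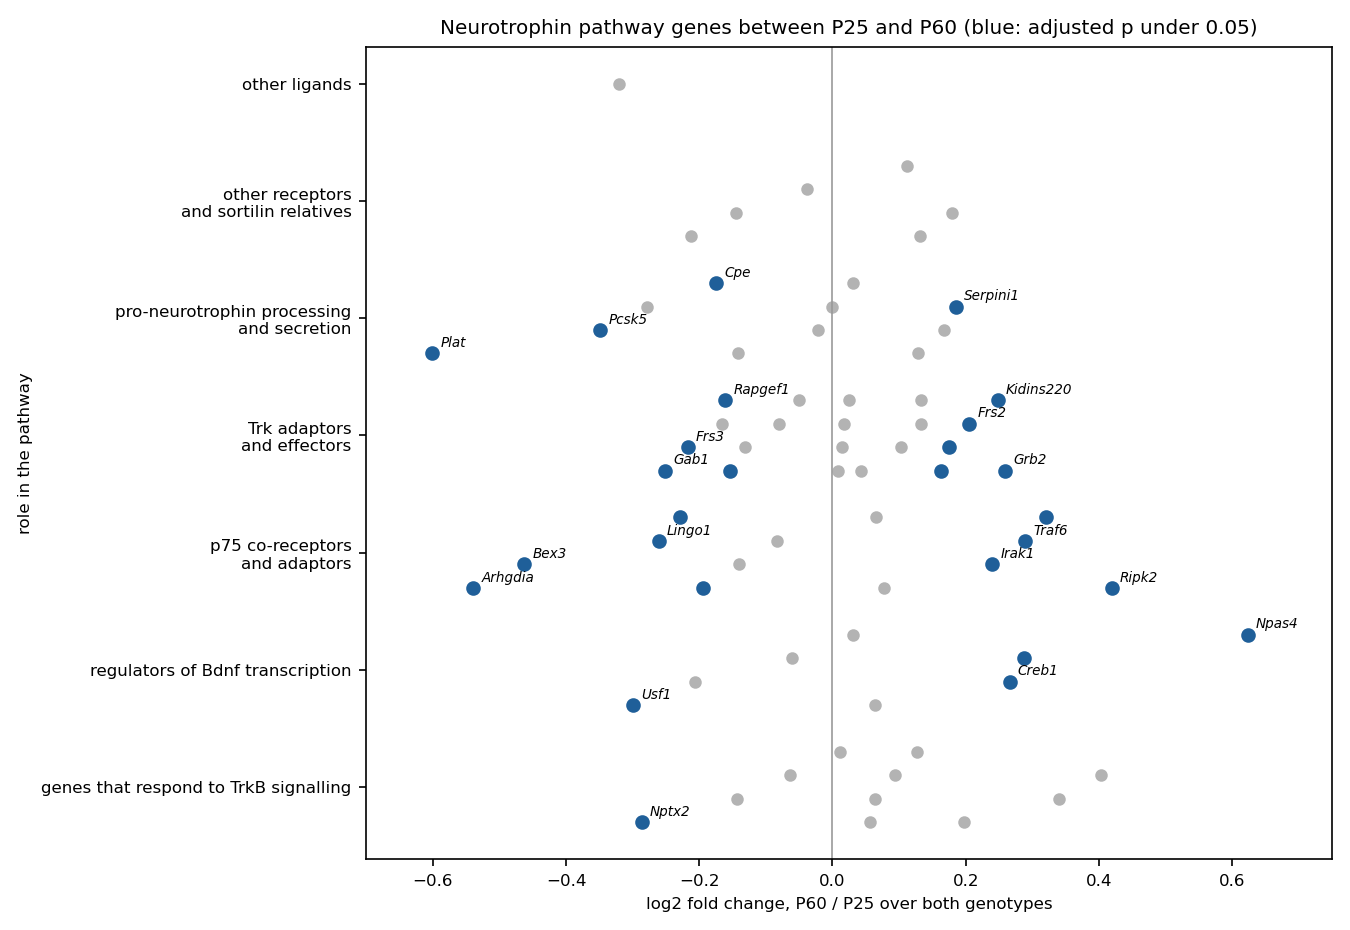
Log2 fold change of P60 to P25 over both genotypes (horizontal axis) for 71 pathway genes by role (rows; the height within a row only separates points). Blue points passed the test (limma, 27 of 71), and the named ones include Plat and Arhgdia, lower at P60, and Npas4, higher.

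Between genotypes none of the 71 pathway genes passed at P25, at P60, over both ages or in the interaction (limma), and 0, 1, 1 and 0 had an unadjusted p under 0.05, beside 1.36%, 2.5%, 2.05% and 1.64% of all genes. The genes nearest to the threshold at P25 were Vgf, a secreted peptide precursor induced by BDNF, with a log2 fold change of KO to WT of 0.22 ± 0.10 (SE), and Nptx2, with 0.20 ± 0.09. At P60 they were Fos, an immediate early gene, with 0.38 ± 0.16, and Sorcs1, a relative of sortilin, with -0.11 ± 0.07. Over both ages they were Vgf, with 0.15 ± 0.07, and Cpe, with 0.06 ± 0.03. All 6 of these values had an adjusted p of 1 (limma). Fos had 672 to 1138 normalized counts in P60-WT and 1031 to 1111 in P60-KO, so the groups overlapped. Its log2 fold change at P60 was 0.22 without P60-WT replicate 1 and 0.60 without P60-WT replicate 3. That of Sorcs1 at P60 was -0.07 without P60-KO replicate 1 and -0.06 without P60-WT replicate 3. Without P25-WT replicate 2, that of Vgf was 0.10 at P25 and 0.09 over both ages.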

How the data were processed

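RNA-seq of 12 forebrain libraries was examined, with 3 libraries per group assigned from sample titles. Per the labels, libraries were made with a TruSeq RNA kit. The authors quantified transcripts with Salmon 1.1.0 with GC bias correction, imported them with tximport and normalized them with DESeq2 1.26.0 in R 3.6.2 (versions from the submitters' processing notes, build GRCm38). The deposited values are signal on a count scale, scaled by factors that differ by gene as well as by library and were set over the 12 libraries together. Whole reads could not be recovered from these values, so no count model was fitted and precision rests on the number of libraries. Depth is not known from them.

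On log2(value + 1), linear models with a trended variance prior were fitted by limma 3.58.1 (R 4.3.3) to genes with a mean of at least 10. That scale understates the changes of low genes. Benjamini-Hochberg adjustment ran over all genes tested, and adjusted p under 0.05 was called. Comparisons were KO against WT at each age (6 libraries), P60 against P25 in each genotype (6 libraries), and, over 12 libraries, the interaction and each factor with the other as covariate. Exact permutation tests and ratios used scipy 1.17.1. With 3 against 3 libraries their smallest p is 0.1, so they are given over both strata. Intervals are 95%.

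The 6 genes and all lists were chosen with earlier results of these data known. The named genes were the 6 members, up to 3 pathway genes per role and direction with the smallest adjusted p for age, the 2 with the smallest p in each genotype comparison, and the 3 genes most correlated with each member, passing over pseudogenes and identifier-like symbols. A few genes that the rule names or the lists hold are not reported here by name. Symbols, positions and lengths came from GENCODE M21, in which 19252 of 19268 identifiers were found. Scripts were tested on simulated data. The deviations from the group mean of libraries with equal replicate numbers correlated from -0.072 to 0.166, and in no comparison were all above 0.1, so replicate numbers were not taken as pairs. The values were all positive only for KO against WT at P60, at 0.06, 0.166 and 0.129. There a replicate block raised the genes with an unadjusted p under 0.05 (limma) from 440 to 1017, with 1 called either way. Libraries with unequal replicate numbers were not correlated for reference. Alternatives changed the pseudocount (0.5, 10), minimum mean (none, 100), scaling, variance trend, libraries in the fit and exon length, added a replicate block or left out 1 library.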

Additional observations from a re-analysis of the deposited data

How the results depend on the processing

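The direction of the age difference of Ntrk2, Ntrk3, Ngfr and Sort1 over both genotypes held under every alternative run, and the 0 genotype and interaction calls among the 6 genes and the 71 pathway genes did as well. Other pseudocounts and minimum means changed no total of calls among these genes by over 1.5 times. Without a minimum mean, however, the only lower age call among the 6 genes over both genotypes, Ngfr, was lost (adjusted p = 0.0502, limma). Without an intensity trend, the age calls among the 6 genes fell to 0 in WT and 0 in KO and those among pathway genes to 2 and 3. With all 12 libraries in the fit they were 2 and 12 in WT. With a replicate block, the pathway count was 10 in KO, 5 higher and 5 lower, and in WT 4 higher and 4 lower against 1 and 5 without it. It moved no other count of calls among the 6 genes and the pathway genes by over 1.5 times. Uncalled log2 fold changes near 0 changed sign: Ntrk3 between genotypes at P25 with equal totals (0.0074) and the Ntf3 interaction with a pseudocount of 10 (0.0044).

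Leaving out 1 library at a time, counts of age calls ran from 0 to 1 (6 genes, WT), 2 to 10 (pathway, WT), 1 to 2 (6 genes, KO) and 10 to 16 (pathway, KO). Log2 fold changes that crossed 0, none called, ran as follows. KO against WT at P25 gave -0.0657 to 0.1002 for Bdnf, -0.0904 to 0.059 for Ntrk3 and -0.0455 to 0.0827 for Sort1. At P60 it gave -0.1621 to 0.039 for Bdnf and -0.1071 to 0.0197 for Ntrk2. Over both ages it gave -0.0662 to 0.0231 for Bdnf and -0.0476 to 0.0111 for Sort1. The age change of Ntf3 in KO ran from -0.2556 to 0.0917. The interaction ran from -0.1725 to 0.0285 for Bdnf, -0.1467 to 0.2006 for Ntf3, -0.0793 to 0.0475 for Ntrk2, -0.1334 to 0.016 for Ntrk3 and -0.2455 to 0.0719 for Ngfr. The log2 ratio of Ntrk2 to Ntrk3 between genotypes ran from -0.0259 to 0.037, and that of Bdnf to Ntrk2 from -0.0431 to 0.0669 between genotypes and -0.0832 to 0.0268 between ages. Of the ratio calls none was lost without 1 library, and 5 were gained: 3 for Ntf3 to Ntrk3 between ages and, without P60-WT replicate 3, 1 each for Ngfr to Ntrk2 and Sort1 to Ngfr between genotypes. The cause of these changes was not tested beyond the smaller number of libraries.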

Other observations

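The genes next in likeness to Bdnf after the 3 named by rule were Xbp1 (r = 0.894) and Creld2 (r = 0.888), both of the endoplasmic reticulum stress response, and they were chosen after their values were seen. Over the 12 libraries Xbp1 ran from 1700 to 3041 normalized counts and Creld2 from 281 to 592. With group means removed, r was 0.940 for Xbp1 and 0.899 for Creld2. The correlation of Ntf3 with Ntrk2 was -0.459 over the 12 libraries and -0.797 with group means removed. It was not particular to this pair: with group means removed, r of Ntf3 was -0.751 with Sort1 and -0.700 with Ntrk3. These are descriptions of 12 libraries with no test.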
